A study of Rattus norvegicus with 18 samples.

Results

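The levels of 10 named genes of the circadian clock were followed in bulk RNA-seq of neural retina and of retinal pigment epithelium with choroid (RPE/choroid) from Fischer 344 rats. Arntl, Clock and Npas2 encode the activators and Per1, Per2, Per3 and Cry1 the repressors. Nr1d1 and Nr1d2 encode the REV-ERB receptors, and Dbp encodes an output factor. All 10 were found among the 32285 genes of the retina table and the 32552 genes of the RPE/choroid table, and all 10 passed the expression filter in every comparison, so none is left out of the counts. The rats were female and of wild-type genotype. Young rats were 4 months old by the labels, and another source used here puts them slightly younger. Aged rats were 24 months old and drank plain water. 8-AG rats, of the same 24 months, had received 8-aminoguanine (8-AG), a purine compound, through their water from 22 months of age, at 5 mg/kg/day over 8 weeks. Each of these 3 groups gave 3 libraries of each tissue, 18 in all, with 12283458 to 15644346 counts per library in retina and 28573828 to 48203050 in RPE/choroid. The rats were housed under equal periods of light and dark, but no source used here gives the time of day at which the eyes were taken. For genes that rise and fall every day, a difference in collection time and a difference between groups cannot be told apart.

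The molecular clock is a feedback loop that runs in most cells. The protein of Arntl, also called BMAL1, pairs with CLOCK or NPAS2 and switches on genes that carry E-box sequences, among them the Per and Cry genes, Nr1d1, Nr1d2 and Dbp. PER and CRY proteins then block this pair, REV-ERB proteins repress Arntl through sequences called ROREs, and DBP acts through D-boxes, so that in a running clock Arntl transcripts peak at about the opposite phase to Dbp, Nr1d1 and Per transcripts. The retina holds its own clocks, which set rhythms of dopamine and melatonin and of the daily renewal of photoreceptor tips, and the RPE, which takes up the shed tips, has a clock as well.

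The promoter windows of 3 members are shown because they hold the letters through which this loop is wired. The windows run from 250 bases before to 50 bases after the annotated start, were taken from RefSeq on build GRCr8 and matched 9 of the 10 members, all except Cry1. Capitals mark a RORE in Arntl (listed there as Bmal1, chr1:176766078-176766377, plus strand), a D-box and a non-canonical E-box in Per2 (chr9:99496944-99497243, minus strand) and a non-canonical E-box in Nr1d1 (chr10:84231763-84232062, minus strand).
Arntl: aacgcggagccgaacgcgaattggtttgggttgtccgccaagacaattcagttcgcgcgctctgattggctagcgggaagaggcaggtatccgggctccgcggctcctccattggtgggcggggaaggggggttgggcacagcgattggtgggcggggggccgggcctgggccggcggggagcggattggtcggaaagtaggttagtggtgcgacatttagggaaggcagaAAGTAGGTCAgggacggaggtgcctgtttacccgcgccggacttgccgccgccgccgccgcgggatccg
Per2: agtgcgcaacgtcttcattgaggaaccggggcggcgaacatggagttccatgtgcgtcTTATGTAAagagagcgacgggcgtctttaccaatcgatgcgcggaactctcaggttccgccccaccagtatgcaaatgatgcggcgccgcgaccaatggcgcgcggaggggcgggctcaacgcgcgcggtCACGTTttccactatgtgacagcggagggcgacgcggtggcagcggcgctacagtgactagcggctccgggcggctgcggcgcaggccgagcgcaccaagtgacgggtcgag
Nr1d1: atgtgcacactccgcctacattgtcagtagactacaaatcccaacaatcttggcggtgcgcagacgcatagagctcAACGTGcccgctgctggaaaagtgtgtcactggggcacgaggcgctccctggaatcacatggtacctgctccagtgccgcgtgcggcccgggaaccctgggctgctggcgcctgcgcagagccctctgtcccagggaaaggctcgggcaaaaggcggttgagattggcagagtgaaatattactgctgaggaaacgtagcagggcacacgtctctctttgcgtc

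Both strands of each window were searched for the E-box (CACGTG), the non-canonical E-box (CACGTT), the D-box (TTATGTAA), the cyclic AMP element (TGACGTCA) and the RORE. The RORE was searched as TAGGTCA or TGGGTCA after an A, then an A or a T, then any base. The RORE of Arntl begins at position -19 from the start, and 0.703% of 27457 RefSeq promoter windows held one. In Per2 the D-box begins at -192 and the non-canonical E-box at -62, and D-boxes stood in 0.881% of windows. The non-canonical E-box, which was in 4.93% of windows, begins at -174 in Nr1d1. The E-box was in 6.65% and the cyclic AMP element in 1.91% of windows, and no member's window held either. The windows of Clock, Npas2, Per1, Per3, Nr1d2 and Dbp held none of the 5 motifs. These matches describe letters only, since binding was not measured.

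Levels are given in CPM, read counts scaled to a common library total after TMM normalization, always in the order of libraries 1, 2 and 3 of a group. Levels were compared between groups for the same gene, never between genes, because they are not corrected for transcript length. A change was called at a Benjamini-Hochberg adjusted p under 0.05 over all genes tested with edgeR's quasi-likelihood F-test. The study's own rule, more than 1.5-fold in either direction at an unadjusted p under 0.05, is given beside it. The labels do not say that each library came from its own rat, so p-values measure the spread between these libraries.

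In the retina, 3 clock genes differed between aged and young rats. Cry1 and Arntl were lower and Dbp was higher in aged retina, each by less than 1.5-fold. The other 7 did not pass the test. That made 3 of 10 members called, where 14.5% of the 14588 genes tested were called. By the study's rule 0 members were called with edgeR, against 8.84% of all genes, and 0 with DESeq2, against 7.99%. With edgeR 6 members had an unadjusted p under 0.05, as did 29.2% of all genes. The median log2 fold change of the members was -0.02 and that of all genes 0.00, and the median size without sign was 0.18 for the members and 0.16 for all genes.

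Among the activators, Arntl stood at 185, 176 and 206 CPM in young, 131, 130.4 and 162 CPM in aged and 145, 165 and 194 CPM in 8-AG retina. Every aged library was below every young one, while the 8-AG libraries reached into both ranges. Arntl fell by 0.42 on the log2 scale from young to aged retina, with a standard error of 0.092 and an adjusted p of 0.016 (edgeR). Its adjusted p was 0.050 without young library 1 and 0.052 without aged library 2. Clock, the partner of BMAL1, was at 230.3, 251 and 253 CPM in young, 235, 201 and 219 CPM in aged and 236, 216 and 208 CPM in 8-AG retina, with overlap between all groups. The estimate for aged against young was -0.16 on the log2 scale, with a standard error of 0.071 (adjusted p = 0.17). Npas2, which can take the place of Clock, was at 9.09, 10.2 and 8.64 CPM in young, 8.69, 9.95 and 9.76 CPM in aged and 13.5, 12.0 and 9.69 CPM in 8-AG retina. Young and aged values of Npas2 covered the same range.

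Among the repressors, Cry1 was at 43.1, 48.1 and 53.1 CPM in young, 34.9, 33.9 and 37.5 CPM in aged and 38.2, 39.7 and 35.2 CPM in 8-AG retina. All 6 libraries of old rats, treated or not, lay below all young ones. In aged against young retina Cry1 stood at -0.44 on the log2 scale (standard error 0.086, adjusted p = 0.0082), and its adjusted p was at most 0.034 with any 1 library left out. Per1 stood at 96.9, 93.3 and 87.6 CPM in young, 81.0, 55.5 and 72.2 CPM in aged and 63.5, 78.0 and 91.3 CPM in 8-AG retina. The aged libraries of Per1 were all below the young ones, and the estimate of -0.41 on the log2 scale, with a standard error of 0.13, did not pass the test (adjusted p = 0.089) but did with DESeq2 (adjusted p = 0.013). Per2 was at 29.8, 30.0 and 31.8 CPM in young, 37.6, 25.1 and 31.1 CPM in aged and 32.4, 31.7 and 23.7 CPM in 8-AG retina. The young libraries of Per2 were tightly grouped and lay inside the wider range of the aged ones. Per3 followed with 135, 158 and 148 CPM in young, 179, 99.5 and 143 CPM in aged and 129, 126 and 106 CPM in 8-AG retina. For Per3 the aged libraries spread both above and below the young ones, with aged library 1 the highest and aged library 2 the lowest of all 9.

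Of the REV-ERB genes, Nr1d1 was at 172, 156 and 171 CPM in young, 191, 183 and 196 CPM in aged and 213, 151 and 143 CPM in 8-AG retina. Every aged library exceeded every young one, and the fitted difference of 0.20 on the log2 scale, with a standard error of 0.061, missed the threshold (adjusted p = 0.057). With 1 library left out the edgeR adjusted p of Nr1d1 ran from 0.041 to 0.21. With all libraries Nr1d1 passed in at least 1 other setting. The 8-AG libraries held both the highest and the lowest value. Nr1d2 was at 223, 232 and 227 CPM in young, 243.3, 225 and 259 CPM in aged and 224, 235 and 225 CPM in 8-AG retina, a narrow band in which the groups overlapped. Dbp, the output factor, was at 138, 117 and 129 CPM in young, 156, 147 and 161 CPM in aged and 142, 127 and 129.9 CPM in 8-AG retina. Dbp was higher in every aged library than in any other library. From young to aged retina Dbp rose by 0.28 on the log2 scale, with a standard error of 0.071 (adjusted p = 0.029), and the adjusted p lay between 0.019 and 0.12 with 1 library left out. The call for Dbp was lost without young library 2 (0.12), young library 3 (0.076), aged library 1 (0.053) or aged library 3 (0.10), while its sign held in all 6 of these fits.

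**Figure D1:**
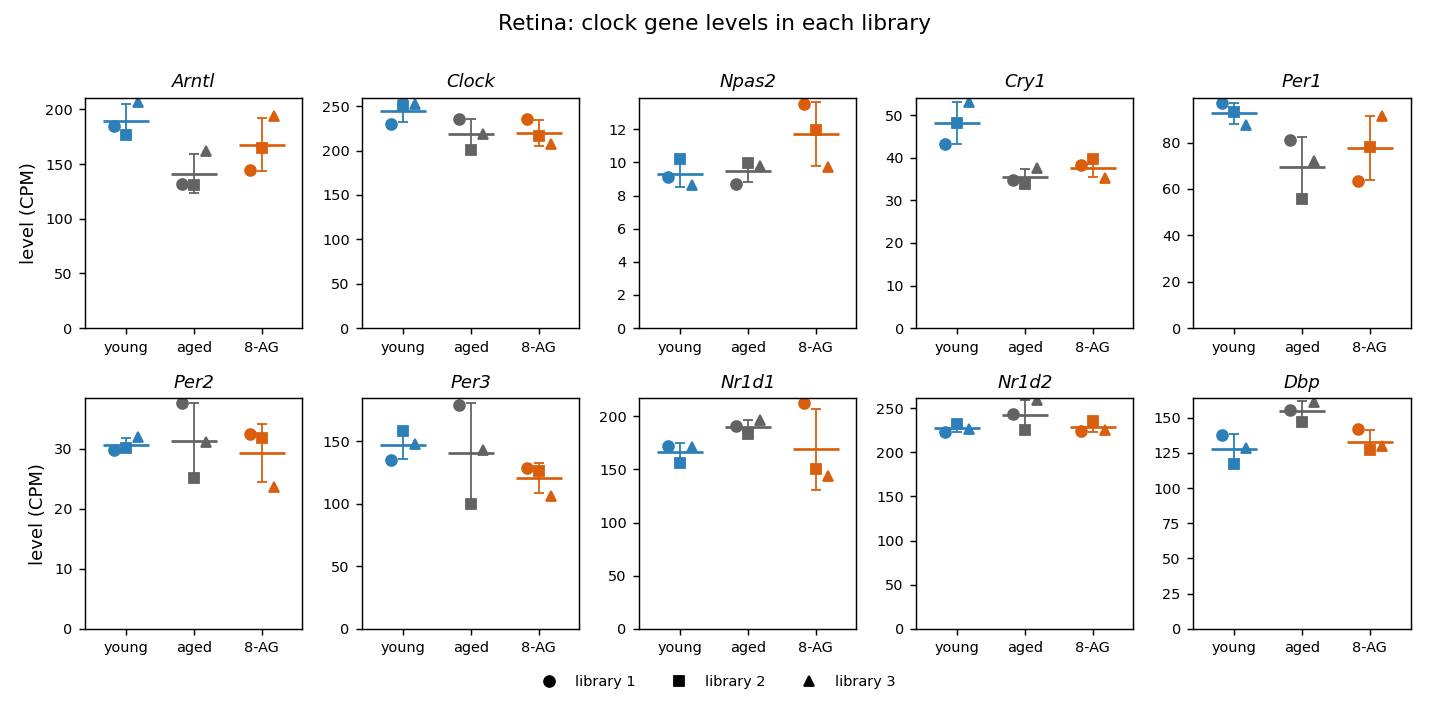
Level (CPM) of each clock gene in the 9 retina libraries, by group, with a symbol for each library, a bar for the mean and whiskers for the SD. Arntl, Cry1 and Per1 sit lower and Dbp and Nr1d1 higher in all 3 aged libraries than in all 3 young ones.

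In all, 5 of 10 members did not overlap between aged and young retina, with Arntl, Cry1 and Per1 below and Dbp and Nr1d1 above, where 35.0% of the 14588 genes did not overlap and 14.5% were called by the test. Rod photoreceptor RNA differed between the same groups. The 13 rod markers found of 14 listed, such as rhodopsin, summed to 57105 to 62162 CPM in young, 36100 to 40860 CPM in aged and 36495 to 48488 CPM in 8-AG retina, and none was at 0 in any library. With a rod marker score added to the model as a covariate, a fit chosen after the data were seen, 0 members and 2 of 14588 genes were called by adjusted p between aged and young retina. The standard errors were larger in that fit, and Cry1 was at -0.039 (standard error 0.47), Arntl at 0.73 (standard error 0.32), Dbp at 0.83 (standard error 0.36) and Nr1d1 at 0.62 (standard error 0.32) on the log2 scale. By the study's rule the same fit called 2 members, beside 2.18% of all genes. Microglia markers also differed, with sums of 38.9 to 40.5 CPM in young, 117 to 198 CPM in aged and 129.6 to 136 CPM in 8-AG retina, as did lens markers, at 67.6 to 1942 CPM in young, 13.5 to 19.2 CPM in aged and 13.3 to 471 CPM in 8-AG retina. Sums of Mueller glia markers, at 3893 to 4157 CPM in young and 3054 to 3526 CPM in aged, of cone markers, at 318 to 345 and 271 to 279 CPM, and of erythroid markers, at 23.8 to 41.8 and 76.7 to 368 CPM, did not overlap between these groups either. Surface epithelium markers summed to 10.8 to 24.5 CPM in 8-AG retina and 2.56 to 4.79 CPM in aged retina. The part of these markers in the clock gene values was not tested. The rod sums of the groups do not overlap, so rod content and age cannot be told apart in these 6 libraries. In bulk tissue, fewer cells of a type and less RNA per cell cannot be told apart either.

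Treatment with 8-AG was compared with plain water in aged rats. In retina 0 clock genes were called with edgeR, which called 3 of 14631 genes (0.0205%), and 0 with DESeq2, which called 18 of 16467 (0.109%). By the study's rule 0 members were called, against 0.957% of all genes, and 1 member had an unadjusted p under 0.05, as did 3.67% of all genes. That member was Dbp, whose 8-AG libraries were all below the aged ones, as 1 of 10 members without overlap beside 8.64% of all genes, at -0.22 on the log2 scale (standard error 0.074, 95% interval -0.38 to -0.05, adjusted p = 0.996). For Arntl the estimate was 0.25 (standard error 0.12) and for Npas2 it was 0.30 (standard error 0.15), neither past the test. For the other 7 members the log2 fold change lay between -0.22 and 0.16. The aged libraries enter both this comparison and that of aged with young retina, so the values of the 2 comparisons are not independent of each other. Side by side, the aged against young and 8-AG against aged log2 fold changes were 0.28 and -0.22 for Dbp, -0.42 and 0.25 for Arntl, and -0.44 and 0.09 for Cry1. These 3 are shown because the first comparison called them. Shared aged libraries tend to give such genes opposite signs without any treatment effect, so no reversal can be read from them. Npas2, at 0.03 and 0.30, and Per3, at -0.06 and -0.22, kept their sign, and the remaining members did not.

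8-AG rats were also compared with young rats, a comparison that uses no aged library. In retina, Cry1 was lower, at -0.35 on the log2 scale, with a standard error of 0.093 (adjusted p = 0.035), and the other 9 members were not called. That was 1 of 10 members, beside 14.9% of 14542 genes, and by the study's rule it was 0 members beside 8.58%. The call for Cry1 was lost in 4 of the 6 fits that left out a library, with adjusted p from 0.038 to 0.13 over the 6. It was lost without young library 2 or 3 and without 8-AG library 2 or 3. Per3 was below the young range in all 8-AG libraries, at -0.28 (standard error 0.089, adjusted p = 0.062), and with Cry1 made 2 of 10 members without overlap, beside 35.5% of all genes. Dbp, at 0.06 (standard error 0.077), and Nr1d1, at 0.03 (standard error 0.16), had estimates near 0, with 95% intervals of -0.11 to 0.23 and -0.35 to 0.40. The 8-AG libraries of Nr1d1 spanned 143 to 213 CPM, beyond both ends of the young range of 156 to 172 CPM. Its estimate ran from -0.17 to 0.14 with 1 library left out. The 3 retina libraries of 8-AG rats carry the label total RNA where all others are labelled polyA RNA, while the protocol in the labels describes poly-A capture throughout, and its part in these comparisons was not tested.

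**Figure D2:**
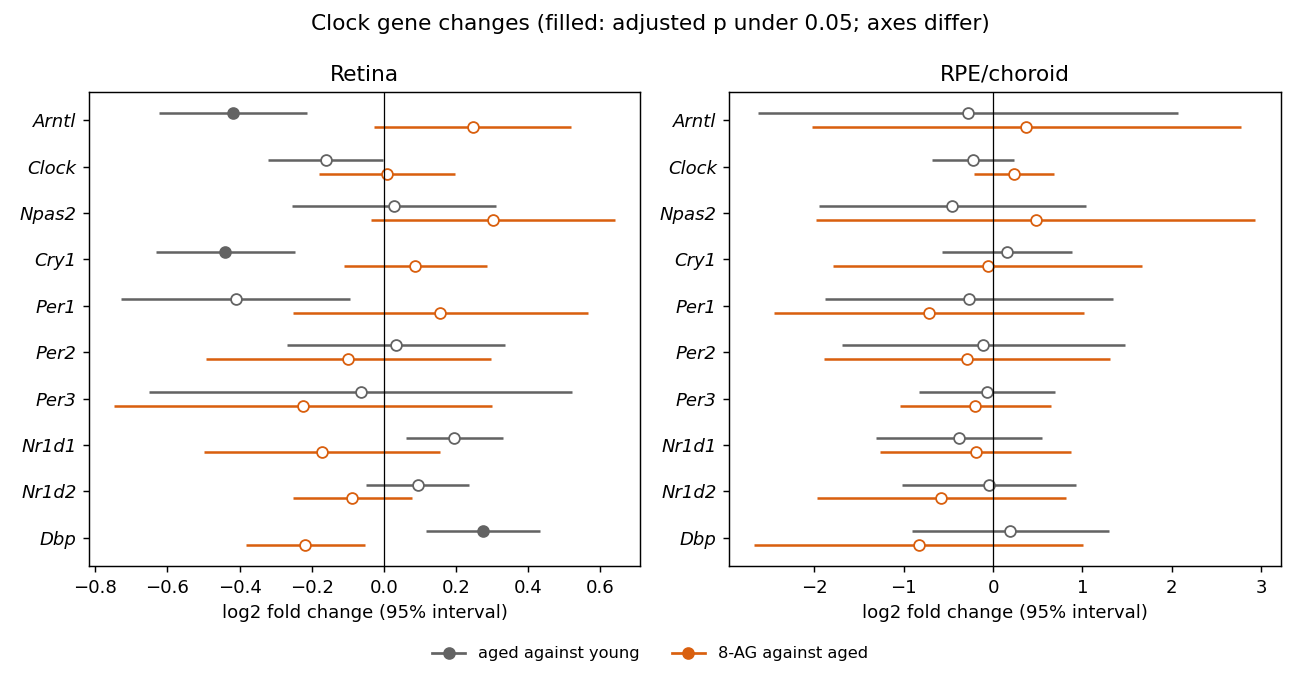
Log2 fold change with its 95% interval for each clock gene, aged against young (grey) and 8-AG against aged (orange), in retina on the left and RPE/choroid on the right, with filled points for an adjusted p under 0.05. Only Arntl, Cry1 and Dbp in aged against young retina are filled, and the RPE/choroid axis is several times wider.

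Other genes of the clock pathway were called in retina as well. Of 21 further clock genes, among them Cry2, the DBP relatives Tef and Hlf, and the kinases and ligases that set PER and CRY stability, 20 were tested. In aged against young retina 8 of these 20 were called, with 2 of them higher, 6 lower and a median of -0.12 (log2 fold change) over the 20, beside 14.5% called and a median of 0.00 over all genes. With 1 library left out the count was 6 to 9, beside 8.38% to 15.6% of all genes. With the rod score as a covariate it was 0, as it was for each of the 3 smaller lists described next. Usp2, a deubiquitinase that acts on clock proteins, was at 114 to 119 CPM in young, 56.3 to 76.9 CPM in aged and 78.1 to 105 CPM in 8-AG retina, and had the lowest adjusted p of the list at -0.79 on the log2 scale, with a standard error of 0.11 (adjusted p = 0.0023). Cry2, the second cryptochrome, fell by 0.46 on the log2 scale, Fbxl21, a ligase subunit for CRY proteins, fell by 0.47, and Csnk1e, a kinase of PER proteins, fell by 0.29. Timeless, whose protein acts at replication forks and has also been linked to the clock, was higher by 0.64. In 8-AG against aged retina 0 of the 20 were called. In 8-AG against young retina 6 of 20 were called, 2 higher and 4 lower, beside 14.9% of all genes, a count that was 2 without young library 2 or young library 3 and 3 without young library 1 or 8-AG library 2. Of these, Cry2 was at -0.44, Nampt, the enzyme of NAD salvage, at 0.37, Timeless at 0.62, Fbxl21 at -0.41 and Nfil3, which competes with DBP for D-boxes, at -0.59.

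Retinal rhythm genes, those of dopamine and melatonin signalling among them, were counted apart. Of 5 tested, 2 were called and lower in aged against young retina, beside 14.5% of all genes called. Drd4, a dopamine receptor of photoreceptors whose transcript is known to cycle daily, stood at 36.9 to 48.0 CPM in young, 15.6 to 21.1 CPM in aged and 25.9 to 29.4 CPM in 8-AG retina, so the 3 groups did not overlap. In aged against young retina it was at -1.13 on the log2 scale, with a standard error of 0.14 (adjusted p = 0.0014). Th, the rate-limiting enzyme of dopamine synthesis, was at -0.60 (standard error 0.15, adjusted p = 0.026). The count fell to 1 without young library 1, young library 2, aged library 1 or aged library 3. In 8-AG against young retina the same pair was called, Drd4 at -0.59 and Th at -0.79, beside 14.9% of all genes, and in 8-AG against aged retina 0 of 5 were called.

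Genes that answer within minutes to light or handling differed too. Of 6 immediate early genes, 3 were called in aged against young retina, beside 14.5% of all genes, with Egr1 at -5.51 and Nr4a1 at -0.94 lower and Junb at 0.70 higher. Summed, the 6 genes were at 325 to 1214 CPM in young, 51.2 to 98.6 CPM in aged and 64.6 to 92.6 CPM in 8-AG retina. Most of the young sums was Egr1, at 251 to 1137 CPM in young, 9.42 to 27.9 CPM in aged and 22.8 to 36.8 CPM in 8-AG retina. Junb went the other way, at 15.6 to 17.7 CPM in young and 20.8 to 32.4 CPM in aged retina, and Arc and Fosb overlapped between these groups. The count was 0 without aged library 2 and 1 or 2 without any other library. In 8-AG against young retina 3 were called, Egr1 at -4.82, Fos at -1.45 and Junb at 0.42, beside 14.9% of all genes, and the count was 0 without young library 1 or 2 or 8-AG library 1 or 2, and 2 without either remaining library. Glucocorticoids are hormones with a daily rhythm of their own, and of 5 genes they induce 3 were called in aged against young retina, beside 14.5% of all genes, with Klf9 at -0.59, Fkbp5 at 0.74 and Zbtb16 at 1.46. In 8-AG against young retina 2 were called, Klf9 at -0.53 and Tsc22d3 at 0.27, beside 14.9% of all genes, a count that was 3 without 8-AG library 1 and 1 without any other library. Of both lists, 0 genes were called in 8-AG against aged retina with edgeR, and DESeq2 called 1 glucocorticoid-induced gene. The part that light, handling or hormone levels at collection had in the clock gene values was not tested.

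In RPE/choroid the clock genes varied far more from library to library than in retina, and no difference between groups was called. The spread within groups, as a pooled SD of log2 CPM, had a median of 0.84 over the members and of 0.49 over the 16625 genes that passed the filter, with 8 members above the latter. In retina the same medians were 0.17 and 0.14. From the lowest to the highest of the 9 RPE/choroid libraries, Npas2 spanned 21.9-fold, Arntl 12.2-fold and Dbp 6.76-fold, while Clock, whose transcript hardly cycles in most tissues, spanned 1.49-fold. In retina no member spanned more than 1.80-fold. All 10 RPE markers listed were found, none at 0 in any library, and they summed to 6019 to 19014 CPM. The lowest sum was that of 8-AG library 1, which stood apart in other cell types as well, with striated muscle markers summing to 46908 CPM against 4517 CPM or less elsewhere and endothelial markers to 586 CPM against 3065 CPM or more.

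Arntl was at 92.3, 69.6 and 9.88 CPM in young, 45.8, 11.1 and 85.0 CPM in aged and 121, 16.9 and 39.5 CPM in 8-AG RPE/choroid. Each group thus held libraries with much and with little Arntl. Clock was at 46.6, 45.7 and 31.2 CPM in young, 38.1, 33.9 and 33.5 CPM in aged and 43.9, 35.8 and 42.1 CPM in 8-AG RPE/choroid. Npas2 was near the limit of measurement, at 2.44, 1.43 and 0.484 CPM in young, 0.742, 1.21 and 1.21 CPM in aged and 1.99, 0.111 and 2.22 CPM in 8-AG RPE/choroid, where 8-AG library 2 held 4 counts. Its lowest values, in young library 3 and 8-AG library 2, stood in libraries that were also low in Arntl. Cry1 was at 24.4, 22.9 and 23.3 CPM in young, 24.8, 16.4 and 37.9 CPM in aged and 47.8, 16.4 and 8.93 CPM in 8-AG RPE/choroid, even in young rats and uneven in both groups of old rats.

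Dbp was high in the 3 libraries where Arntl was lowest. It was at 209, 203 and 281 CPM in young, 316, 364 and 109.9 CPM in aged and 101, 283 and 53.9 CPM in 8-AG RPE/choroid. Nr1d2 was at 197, 178 and 205 CPM in young, 235, 240.3 and 84.9 CPM in aged and 91.0, 205 and 74.7 CPM in 8-AG RPE/choroid. Both were lowest in aged library 3 and 8-AG libraries 1 and 3. Nr1d1 was at 295, 299.6 and 379 CPM in young, 271, 349.9 and 125 CPM in aged and 176, 282 and 185 CPM in 8-AG RPE/choroid. The same 3 libraries held its lowest values. All 8-AG libraries of Nr1d1 were below all young ones, 1 of 10 members without overlap beside 5.93% of all genes, at -0.58 on the log2 scale (standard error 0.27, unadjusted p = 0.074 and adjusted p = 0.9998 with edgeR).

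Per2 was at 30.0, 18.7 and 73.5 CPM in young, 49.7, 47.6 and 15.5 CPM in aged and 16.1, 55.3 and 19.9 CPM in 8-AG RPE/choroid. Per1 was at 10.9, 4.72 and 15.2 CPM in young, 14.98, 7.21 and 3.32 CPM in aged and 2.84, 8.79 and 3.71 CPM in 8-AG RPE/choroid. Both were low in aged library 3, in 8-AG libraries 1 and 3 and in young library 2, and high in young library 3. Per3 was also highest in young library 3, over a narrower range, at 48.8, 43.2 and 83.1 CPM in young, 71.4, 50.9 and 44.6 CPM in aged and 42.2, 68.6 and 32.3 CPM in 8-AG RPE/choroid.

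**Figure D3:**
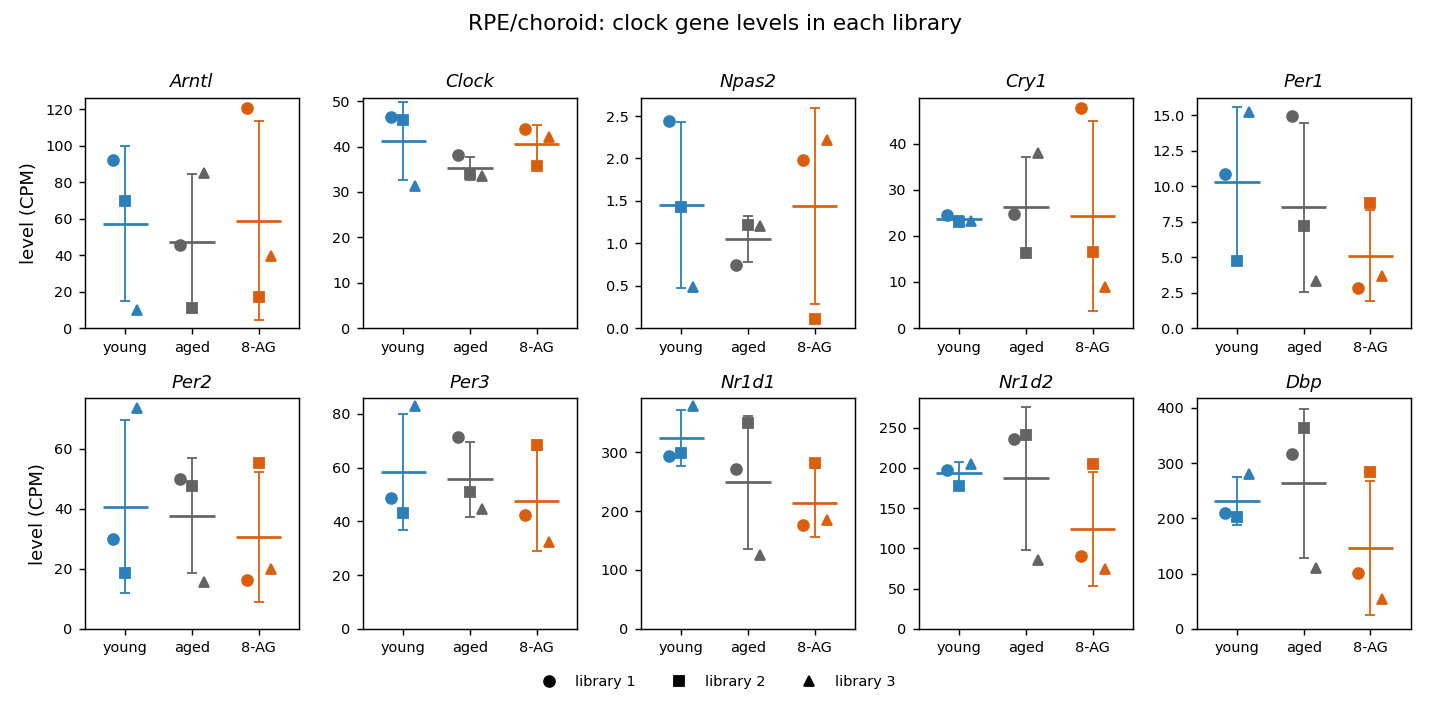
Level (CPM) of each clock gene in the 9 RPE/choroid libraries, drawn as for retina with a symbol for each library, a bar for the mean and whiskers for the SD. Arntl is lowest in young library 3, aged library 2 and 8-AG library 2, where Dbp, Per2 and Nr1d2 are high, while aged library 1 has high Dbp with Arntl at 45.8 CPM. The groups overlap for every gene except Nr1d1 in 8-AG against young.

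The same data can be read as 1 value per library. A clock contrast was taken as the mean centred log2 CPM of Arntl, Clock, Npas2 and Cry1 minus that of Per1, Per2, Per3, Nr1d1, Nr1d2 and Dbp. The first set holds Clock, which hardly cycles, and Cry1, which is E-box driven like the second set but peaks later, so the 2 sets are not strictly of opposite phase. Npas2, near the limit of measurement in RPE/choroid, weighs as much as any other gene of its set. Arntl, Clock, Npas2 and Cry1 all averaged higher CPM in retina than in RPE/choroid. So did Per1, Per3 and Nr1d2, while Per2, Nr1d1 and Dbp averaged lower. The contrast is a description with no test, and the part of retinal RNA in it was not tested. In RPE/choroid it was 0.48, 0.54 and -1.60 in young, -0.66, -1.03 and 1.27 in aged and 1.72, -1.59 and 0.87 in 8-AG rats, so each group held libraries on both sides of 0. In retina it was 0.00, 0.12 and 0.13 in young, -0.36, -0.01 and -0.15 in aged and 0.05, 0.10 and 0.11 in 8-AG rats. There the range of all 9 libraries was narrower than the range within any group of RPE/choroid, and the aged libraries were the lowest.

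**Figure D4:**
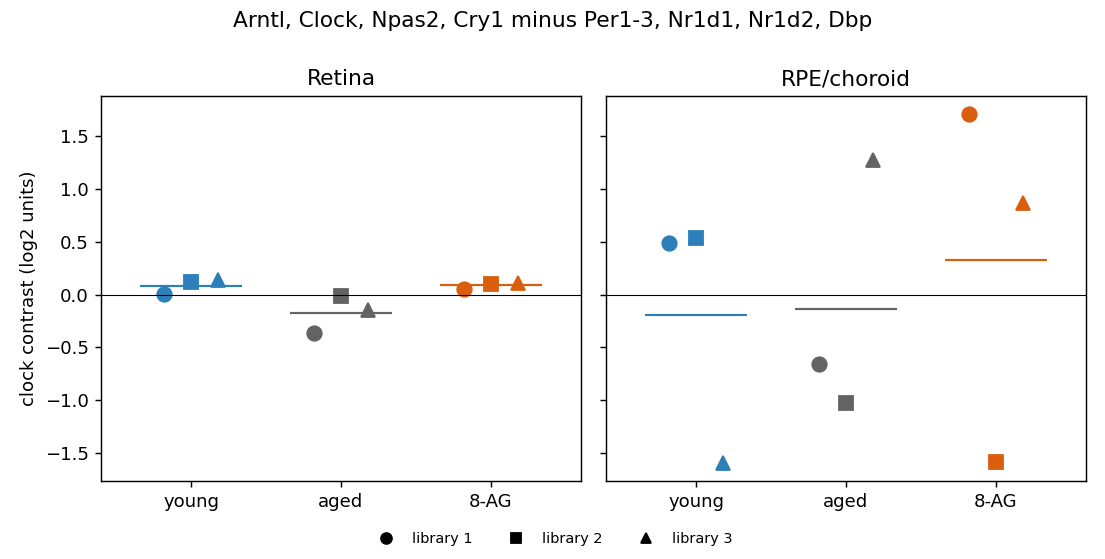
Clock contrast (log2 units, each gene centred on its mean over the tissue) in each library of retina (left) and RPE/choroid (right), with a bar for the mean of each group. In retina all values lie between -0.36 and 0.13, and in RPE/choroid every group spans from -1.03 or lower to 0.54 or higher.

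In RPE/choroid, libraries 1 and 2 of the young group carry the same number in their labels, once with L and once with R, as do libraries 1 and 2 of the aged group. Whether such a pair is 1 rat is not given. Over the 10 members, young libraries 1 and 2 differed by 0.517 (root mean square of log2 CPM differences) and each from library 3 by 1.36 and 1.35. Aged libraries 1 and 2 differed by 0.807, and from library 3 by 1.24 and 1.46. Over all genes the pair with a shared number was the closest in the young group, at 0.728 against 1.15 and 1.12, but not in the aged group, at 1.19 against 0.893 for libraries 1 and 3. In the 8-AG group, whose labels share no number, the distances over the 10 members were 1.84 between libraries 1 and 2, 0.986 between 1 and 3 and 1.72 between 2 and 3. Over all genes they were 2.04, 1.92 and 1.05, with libraries 2 and 3 the closest.

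Retinal RNA also varied between the RPE/choroid libraries. The 13 rod markers, none of them at 0, summed to 17963, 19924 and 2013 CPM in young, 11609, 616 and 16742 CPM in aged and 54997, 903 and 880 CPM in 8-AG rats. Arntl was 45.8 CPM or more in the 5 libraries with rod sums of 11609 CPM or more, and 39.5 CPM or less in the other 4, with rod sums of 2013 CPM or less. Dbp did not follow the same division. Among the 4 rod-poor libraries it was at 281, 364 and 283 CPM in young library 3, aged library 2 and 8-AG library 2. In 8-AG library 3, which held as little rod RNA, Dbp was at 53.9 CPM. That library held more of some other retinal RNA. Its bipolar cell markers summed to 281 CPM, against 82.8, 71.6 and 85.2 CPM in the other rod-poor libraries. Its Mueller glia markers summed to 2463 CPM against 1277, 1244 and 1409 CPM. Its amacrine and ganglion cell markers, at 104 CPM, were below the 119 CPM of aged library 2. Among the 5 rod-rich libraries Dbp ran from 101 CPM in 8-AG library 1 to 316 CPM in aged library 1. The part of rod, other retinal, muscle or vessel content in the clock gene values was not tested beyond the covariate and leave-out fits given here.

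**Figure D5:**
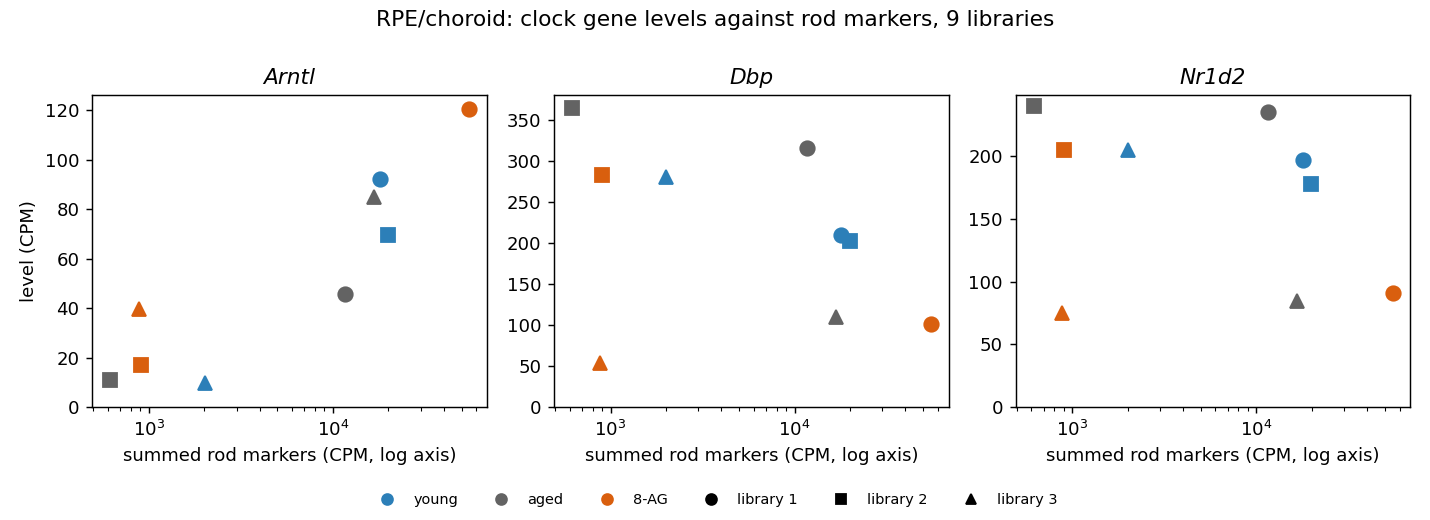
Level (CPM) of Arntl, Dbp and Nr1d2 in each of the 9 RPE/choroid libraries against the summed CPM of 13 rod markers on a log axis, coloured by group. Arntl is higher in the 5 rod-rich libraries, while Dbp and Nr1d2 are low in 8-AG library 3 at 880 CPM of rod markers and also in aged library 3 at 16742 CPM.

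Tested across groups, 0 members were called in each RPE/choroid comparison with edgeR and 0 with DESeq2, which called 0.169% to 0.535% of all genes. With edgeR 0 members had an unadjusted p under 0.05, as against 1.69% to 2.13% of all genes. In aged against young rats 0 of 10 members and 0.0% of 16047 genes were called by adjusted p, and by the study's rule 0 members beside 1.35% of genes. The members' log2 fold changes ran from -0.45 for Npas2 to 0.19 for Dbp, with standard errors of 0.19 to 0.96. In 8-AG against aged rats 0 members and 0.0% of 16257 genes were called by adjusted p, and by the study's rule 0 members beside 1.65%. Dbp had the largest difference, -0.83 (standard error 0.74, 95% interval -2.67 to 1.003), and it was -1.73 without 8-AG library 2, -0.45 without 8-AG library 3 and -0.65 without 8-AG library 1. Arntl was at 0.37 (standard error 0.97, 95% interval -2.03 to 2.77), which was -0.76 without 8-AG library 1 and 1.11 without aged library 3. The interval of Arntl holds changes of severalfold in both directions, and that of Dbp holds a severalfold decrease.

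In 8-AG against young RPE/choroid 0 members and 0.0% of 16215 genes were called by adjusted p, and by the study's rule 0 members beside 1.99%. Per1 was at -0.997 (standard error 0.63) and Dbp at -0.65 (standard error 0.62). Without 8-AG library 2, the library with high Dbp, 4 members passed the study's rule: Per1 at -1.61, Dbp at -1.53, Nr1d2 at -1.18 and Nr1d1 at -0.80. The same fit passed 7.22% of all genes, against 1.99% with all libraries. Without 8-AG library 1, 1 member passed it, Cry1 at -0.89, beside 4.15% of all genes. With the rod marker score as a covariate 1 member passed it, Nr1d1 at -0.67, beside 18.3% of all genes. The 21 further clock genes, 6 retinal rhythm genes, 6 immediate early genes and 5 glucocorticoid-induced genes were all tested in each of the 3 RPE/choroid comparisons, and 0 were called by adjusted p with edgeR and 0 with DESeq2.

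Whether the aging change differed between tissues was tested with an interaction term in limma over 16792 genes found in both tables. The model had no term for the rat, and whether retina and RPE/choroid libraries came from the same rats is not given. With limma 0 members were called, beside 0.0298% of all genes. Nr1d1 had the largest difference among members, since its change in retina exceeded that in RPE/choroid by 0.69 on the log2 scale (standard error 0.33, unadjusted p = 0.064, adjusted p = 0.77 with limma). Cry1 followed at -0.51 (standard error 0.29). For the 8-AG change 0 members and 0.0% of 16915 genes were called, with the largest differences at 0.81 for Per1 (standard error 1.01) and 0.77 for Dbp (standard error 0.60). At an unadjusted p under 0.05 there were 0 members in both tests, beside 7.03% and 1.21% of all genes. Cry1, Arntl and Dbp were thus called in aged retina and not in aged RPE/choroid, but the interaction did not pass for any of them.

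For Dbp and Arntl, the genes with the most similar course over the 9 libraries of a tissue were found by the root mean square difference of centred log2 CPM. In RPE/choroid, of 12974 candidate genes, the closest to Dbp was Nr1d2, another member, at 0.301, followed by Nenf, Cldn1, Enho and Wnt11 at 0.353 to 0.395. Of the other members, Per2 came at rank 92, Nr1d1 at 114, Per1 at 125 and Per3 at 167, while Clock was at 7713, Cry1 at 9525 and Arntl at 12232, and Npas2 was too low to be a candidate. In retina, of 13134 candidates, the closest to Dbp were Sdr39u1, Grip2, Wdr11, Cnpy3 and Rbm19 at 0.062 to 0.075, with Nr1d1 at rank 287 and Nr1d2 at rank 318. There the Per genes were far from Dbp, with Per2 at rank 6117, Per3 at 9911 and Per1 at 11317, as were Clock at 6195, Npas2 at 9239, Cry1 at 10776 and Arntl at 11041. Closest to Arntl in RPE/choroid were Lix1, Gabrb2, RGD1311575, Fbxo44 and Adam11 at 0.286 to 0.329, and in retina Bbs7, Gnb5, Wdr98, Wdr47 and Grk1 at 0.072 to 0.083. Of the members, Cry1 at rank 2224 and Clock at 2876 came nearest to Arntl in RPE/choroid, and the Per genes, Nr1d1, Nr1d2 and Dbp at 9691 to 12191. In retina Per1 at 867 and Cry1 at 901 came nearest, before Clock at 3281 and Nr1d2 at 5746, with the others at 9605 to 10433. Grk1 encodes rhodopsin kinase and Bbs7 a subunit of a ciliary complex. All libraries of a tissue share their groups and their cell makeup in these distances, and no test was made of them.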

How the data were processed

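The protocol in the labels gives poly-A capture for retina libraries, although those of 8-AG rats are labelled total RNA, and poly-A selection enriching full-length transcripts for RPE/choroid. For retina the authors deposited RSEM expected counts per gene, rounded here (11.5% of values were not whole), and a TMM-normalized signal used to pair symbols with identifiers, from which the members' CPM, computed from the rounded counts, differed by at most 0.0583%. For RPE/choroid the authors deposited raw read counts. The submitters' processing notes name Bowtie2 2.1.0, RSEM 1.2.15, edgeR and the build Rnor_6.0. Tables of the authors' own comparisons (fold changes and p-values) gave gene names only.

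The 6 libraries of each comparison were fitted in R 4.3.3 with edgeR 4.0.16, by filterByExpr, TMM, estimateDisp, robust glmQLFit and glmQLFTest. The standard error is the log2 fold change over the square root of F. Tissue interactions used limma 3.58.1 (voomWithQualityWeights, 12 libraries). Counts were normalized within each tissue. Log values used a prior count of 2. Alternatives were RLE factors, library size only, DESeq2 1.42.0, no filter, 10 counts in every library, robust=FALSE, a replicate block, one fit over 3 groups, unrounded counts, libraries with a shared number summed, a rod score covariate (added in retina after the data were seen) and leaving out each library. Scripts were tested on simulated data. Tables and figures used Python 3.11.15, pandas 2.3.3 and matplotlib 3.10.9.

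Members and lists were chosen with earlier results of these data known. All members are named. Of other lists, values are given for at most the 5 genes of lowest adjusted p among those called per comparison. Arc and Fosb, not called, are named for their overlap. For Dbp and Arntl the 5 genes most alike are named, with a mean log2 CPM of at least 1.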

Additional observations from a re-analysis of the deposited data

How the results depend on the processing

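Between aged and young retina, 3 clock genes were called. The count was 5 with library size only (19.8% of all genes, against 14.5%), a scaling that moves the median of all genes to 0.12, and 0 with the rod score as a covariate, a setting added after the data were seen, where the study's rule called 2 (2.18% of all genes) and Arntl stood at 0.73, Cry1 at -0.039, Dbp at 0.83, Npas2 at -0.21, Per1 at 0.063 and Per3 at 0.22. Per3 was at 0.052 with library size only. The other settings with all libraries called 3 or 4 members (11.2% to 14.6% of all genes), and leaving out 1 library gave 2 to 4 (8.38% to 15.6%). Between 8-AG and young retina 1 was called. The count was 0 with library size only (14.6% of all genes, Per2 0.013) and 0 with the replicate block (13.3%). It was 2 with DESeq2 (12.0%), 2 without the filter on low counts (11.2%, Nr1d2 -0.0044) and 2 with the rod score (8.82%, Arntl 0.20, Dbp -0.068, Npas2 -0.13, Nr1d1 -0.54, Per1 0.18). With 1 library left out it was 0 to 2 (6.96% to 16.6%). In 8-AG against aged retina Clock was at -0.033 with library size only.

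In RPE/choroid no adjusted call of a member was gained in any setting. Between 8-AG and young, the study's rule called 1 member with the rod score (18.3% of all genes) and 0 to 4 with 1 library left out (4 without 8-AG library 2, where it called 7.22% of all genes). There Clock, near 0, changed sign to 0.033 with RLE factors, 0.028 with DESeq2, 0.0025 without the filter, 0.0023 with 10 counts in every library, 0.011 with the block, 0.094 with the rod score and 0.081 with shared numbers summed. With library size only Arntl was at -0.090, Cry1 at -0.056 and Npas2 at -0.12. Between aged and young, Arntl was at 0.35 with the rod score, and with shared numbers summed Arntl was at 0.32 and Dbp at -0.12. Between 8-AG and aged, Nr1d1 was at 0.0066 with shared numbers summed.

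Nothing in the labels pairs libraries of the same replicate number between groups. Deviations of libraries with the same number correlated at -0.25 to 0.22 in retina and -0.58 to 0.65 in RPE/choroid. With 3 libraries per group these values cannot settle whether the numbers pair libraries. With the number as a block, the study's rule called 1 member in 8-AG against aged RPE/choroid (1.88% of all genes) and Npas2 was at -0.026. Against young, Cry1 was at -0.29 and Npas2 at -0.38 in the 8-AG group and Per2 at 0.044 in the aged group.

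Leaving out 1 library turned the sign of uncalled genes. In 8-AG against aged RPE/choroid the ranges were -0.76 to 1.11 for Arntl, -1.06 to 0.30 for Cry1, -0.51 to 0.14 for Nr1d1 and -0.54 to 0.011 for Per3. In 8-AG against young RPE/choroid they were -1.01 to 0.59 for Arntl, -0.15 to 0.11 for Clock, -0.89 to 0.47 for Cry1, -0.43 to 0.60 for Npas2, -1.14 to 0.35 for Per2 and -0.60 to 0.090 for Per3. In aged against young RPE/choroid they were -0.99 to 0.24 for Arntl, -0.19 to 0.40 for Cry1, -0.11 to 0.57 for Dbp, -0.89 to 0.14 for Npas2, -0.27 to 0.31 for Nr1d2, -0.97 to 0.12 for Per1, -0.46 to 0.62 for Per2 and -0.30 to 0.26 for Per3. In retina they were -0.045 to 0.070 for Clock and -0.23 to 0.061 for Per2 in 8-AG against aged, -0.17 to 0.14 for Nr1d1, -0.012 to 0.031 for Nr1d2 and -0.14 to 0.079 for Per2 in 8-AG against young, and -0.031 to 0.10 for Npas2, -0.12 to 0.17 for Per2 and -0.28 to 0.13 for Per3 in aged against young. Arntl, Cry1 and Dbp kept their sign in aged against young retina in every such fit.

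Of 598 log2 fold changes recomputed with all libraries, 31 turned sign, and 1 of these, Arntl under the rod score, was of a called gene. Over all genes, the call counts in RPE/choroid were 0 in the main edgeR fits and 29, 81 and 98 with DESeq2 (aged against young, 8-AG against aged, 8-AG against young). The rod score called 1 gene in aged against young RPE/choroid. In 8-AG against aged retina the counts were 3 with edgeR, 18 with DESeq2, 18 with the rod score and 10 without the filter. They were 0 with the replicate block, robust=FALSE or 10 counts in every library, and 0 to 3 with 1 library left out. The causes of these differences were not tested.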
